A study of Mus musculus with 24 samples.

Results

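The Ifit genes encode interferon-induced proteins built from tetratricopeptide repeats. They were taken as the 5 rows named Ifit1, Ifit2, Ifit3, Ifit3b and Ifit1bl1 among the 55291 gene symbols of an RNA-seq table, and all 5 were among the 13246 genes at 1 TPM or more in at least 4 libraries (TPM, read density per transcript length, scaled to the same total in each library). Dendritic cells had been grown from bone marrow of 3 mouse strains, labelled B6, C57 and PWD, for 7 days in GM-CSF at 20 ng/ml. PWD is a wild-derived inbred line of the subspecies M. m. musculus. The sources used here do not say how C57 animals differ from B6, nor how old the mice were. There were 6 groups of 4 libraries, 24 in all: cells without treatment (B6 untreated, C57 untreated, PWD untreated) and cells given lipopolysaccharide (LPS) of E. coli 0111:B4 at 10 ng/ml for 6 hours (B6 LPS, C57 LPS, PWD LPS). All 6 groups share the GM-CSF culture, and the design text gives 4 separate cultures per strain, each from its own mouse. The series addresses how natural variation in wild-derived mice shapes transcription after endotoxin, and the 12 comparisons here are LPS with untreated cells in each strain, pairs of strains within a treatment, and the differences of the LPS responses.

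IFIT proteins are effectors of the interferon response. IFIT1 binds viral RNA whose cap lacks the methyl groups that mark host messages and keeps it from being translated. Human IFIT2 and IFIT3 act with IFIT1 in RNA-binding complexes, and whether the mouse proteins do was not examined here. In myeloid cells LPS signals through Tlr4 and the adaptor Ticam1 to Irf3, which turns on interferon beta, and secreted interferon beta acts back on its receptor to activate a complex that includes Stat2 and Irf9. That complex binds a short promoter element, the interferon-stimulated response element (ISRE), in front of most Ifit genes.

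The family lay in 1 cluster on chromosome 19, between Lipa and Slc16a12, over 99.3 kb at chr19:34550694-34650009 (mm10, GENCODE M21). In order along the chromosome, the plus-strand genes Ifit2 (chr19:34550694-34576419) and Ifit3 (chr19:34583531-34588731) were followed by Ifit1bl1 on the minus strand (chr19:34592891-34601956), Ifit3b on the plus strand (chr19:34607970-34613401) and Ifit1 on the plus strand (chr19:34640871-34650009). A sixth gene of the cluster, Ifit1bl2, lies on the minus strand between Ifit3b and Ifit1 and is not among the 5 rows. It stayed at group means of 0.0907 to 3.49 TPM.

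The bases just before the start sites are shown for the members with an ISRE match, and Ifit2, for which none was found, is left out. Whether a match bears on the LPS response was not tested. The sequences are RefSeq's (GRCm38.p6, the assembly that mm10 names), each read 5′ to 3′ on the gene's own strand: Ifit1 at chr19:34640744-34640870 (plus strand), Ifit3 at chr19:34583329-34583528 (plus), Ifit3b at chr19:34607757-34607956 (plus) and Ifit1bl1 at chr19:34601969-34602168 (minus). Each ends at the last base before the RefSeq start, except that of Ifit1, which ends 18 bases earlier, before the GENCODE start. Capitals mark each match to the ISRE core GAAANNGAAA or its reverse complement TTTCNNTTTC, searched on both strands.
Ifit1: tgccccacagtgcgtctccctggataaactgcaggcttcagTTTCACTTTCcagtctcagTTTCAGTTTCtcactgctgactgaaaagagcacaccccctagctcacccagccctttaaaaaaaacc
Ifit3: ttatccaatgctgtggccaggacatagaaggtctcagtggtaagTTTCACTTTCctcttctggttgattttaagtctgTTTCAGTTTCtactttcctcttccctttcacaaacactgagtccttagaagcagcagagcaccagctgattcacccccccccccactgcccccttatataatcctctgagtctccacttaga
Ifit3b: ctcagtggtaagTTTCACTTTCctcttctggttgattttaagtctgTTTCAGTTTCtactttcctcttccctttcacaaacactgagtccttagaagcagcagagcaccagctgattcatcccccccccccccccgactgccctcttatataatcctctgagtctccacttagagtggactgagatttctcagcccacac
Ifit1bl1: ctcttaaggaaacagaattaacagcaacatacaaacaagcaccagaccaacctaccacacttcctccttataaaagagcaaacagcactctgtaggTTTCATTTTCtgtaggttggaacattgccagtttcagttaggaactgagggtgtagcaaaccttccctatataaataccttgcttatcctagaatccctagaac

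The full windows ran from 250 bases before to 50 bases after a start, and all 5 members had at least 1 such window. Ifit1, Ifit3 and Ifit3b each held 2 matches, with first bases at positions -104 and -85 in Ifit1, -156 and -122 in Ifit3, and -188 and -154 in Ifit3b. In these 3 genes the upstream match read TTTCACTTTC and the downstream match TTTCAGTTTC. Ifit1bl1 held 1 match, TTTCATTTTC, in each of its 2 listed windows. The 2 windows of Ifit2 held none, which says only that these letters are not in those windows. Of all 32851 RefSeq promoter windows of this length, 3.44% held the ISRE core. The Ifit3 and Ifit3b windows were near copies of each other, offset by 32 bases, with 259 of 276 aligned positions identical (93.8%). These letters are those of the reference mouse, and PWD sequence was not analysed here.

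**Figure D1:**
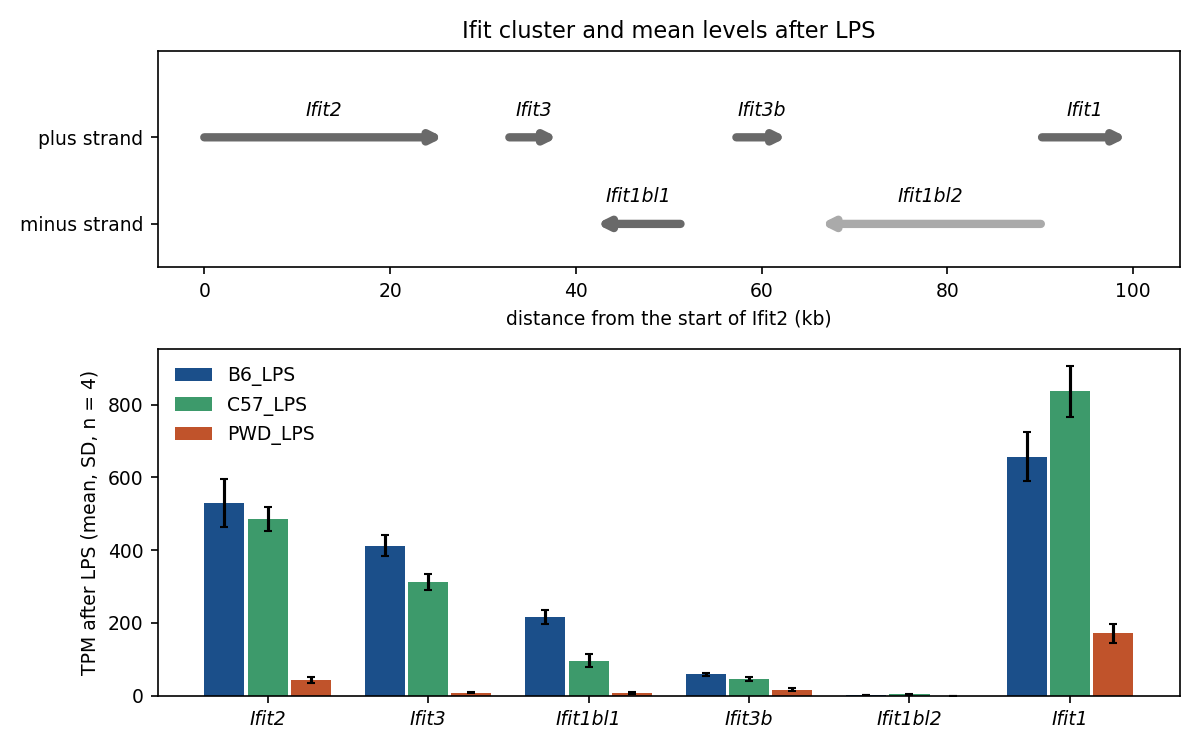
Upper panel: the 6 genes of the cluster as arrows in the direction of transcription, on an axis of distance from the start of Ifit2 in kb (grey: Ifit1bl2, not a member). Lower panel: TPM after LPS for each gene in chromosomal order, bars for the mean and lines for the SD over 4 libraries, in B6, C57 and PWD; Ifit1 reached 171 TPM in PWD, whereas Ifit3 stayed at 7.81 TPM there and stood at 412 TPM in B6.

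Across the 24 libraries, 10731 to 12663 genes reached 1 TPM, and 8 structural RNA symbols took 28.8% to 44.2% of a library's TPM. TPM keep no read depth, so the counting error of the lowest values is unknown. The dendritic cell genes Itgax (206 to 402 TPM over all libraries), H2-Ab1 (429.9 to 1695 TPM) and Zbtb46 (4.90 to 16.4 TPM) were present in every library. Flt3 stayed under 1 TPM, and the macrophage genes Csf1r (112 to 354 TPM) and Adgre1 (58.1 to 130.1 TPM) were present too. Libraries numbered 3 and 4 in every group had Xist at 41.9 to 104 TPM and those numbered 1 and 2 at no more than 0.0901 TPM, so results were also taken within each of these pairs of numbers.

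Ifit1, the cap-sensing member, was the highest of the 5 in every group by mean TPM, a scale that is already per transcript length. Without treatment it stood at 120.4, 95.4, 110.2 and 134 TPM in the 4 B6 libraries, 84.3, 143, 75.8 and 68.4 TPM in C57 and 4.04, 3.62, 4.50 and 5.17 TPM in PWD. After LPS it stood at 633, 627, 756 and 608 TPM in B6, 770, 842, 932 and 802 TPM in C57 and 136, 194, 189.8 and 165 TPM in PWD. The order of the group means ran C57 LPS, B6 LPS, PWD LPS, B6 untreated, C57 untreated, PWD untreated, and only B6 and C57 untreated overlapped among neighbours in that order. LPS-treated PWD cells thus held more Ifit1 than untreated B6 cells.

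Ifit2 was next. Its untreated values were 64.8, 42.2, 64.2 and 83.0 TPM in B6, 41.1, 72.5, 40.3 and 41.2 TPM in C57 and 3.23, 1.99, 3.67 and 3.90 TPM in PWD. Its LPS values were 489.5, 476, 620.1 and 531 TPM in B6, 444, 496, 523 and 481 TPM in C57 and 33.0, 50.6, 48.9 and 42.4 TPM in PWD. Here PWD LPS, at a mean of 43.7 ± 7.96 TPM (SD, n = 4), ranked below B6 untreated at 63.6 ± 16.7 TPM, with overlapping ranges between PWD LPS and each of B6 untreated and C57 untreated, between both untreated groups of B6 and C57, and between B6 LPS and C57 LPS.

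Ifit3 spanned the widest range of group means among the 5 members, as a ratio. Untreated cells held 59.8, 47.6, 56.1 and 72.3 TPM in B6, 32.7, 55.4, 31.4 and 28.7 TPM in C57 and 0.632, 0.265, 0.683 and 0.757 TPM in PWD, the last all under 1 TPM. LPS-treated cells held 394, 442, 431 and 382 TPM in B6, 287, 324, 337 and 305 TPM in C57 and 6.13, 7.64, 9.54 and 7.91 TPM in PWD. Every PWD library after LPS was below every untreated library of B6 and C57.

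Ifit3b, the near copy of Ifit3, was the lowest member in B6 and C57. It stood at 12.1, 9.88, 8.52 and 12.7 TPM in untreated B6, 5.57, 9.36, 4.29 and 5.45 TPM in C57 and 1.27, 0.861, 1.77 and 1.47 TPM in PWD. After LPS it stood at 56.7, 62.8, 61.2 and 54.4 TPM in B6, 40.5, 48.3, 50.4 and 43.9 TPM in C57 and 13.4, 18.4, 19.9 and 15.7 TPM in PWD. In PWD it was above Ifit3 in all 8 libraries, and PWD LPS lay above B6 untreated with no overlap.

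Ifit1bl1 has a coding sequence 75.9% identical to that of Ifit1. It stood at 33.0, 25.4, 24.9 and 28.9 TPM in untreated B6, 12.9, 25.5, 10.7 and 11.0 TPM in C57 and 0.547, 0.421, 0.981 and 0.863 TPM in PWD. After LPS it stood at 212, 212, 243 and 195 TPM in B6, 87.9, 121, 97.3 and 77.7 TPM in C57 and 4.26, 6.64, 8.66 and 7.86 TPM in PWD. Its PWD values after LPS were again all below the untreated values of B6 and C57.

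**Figure D2:**
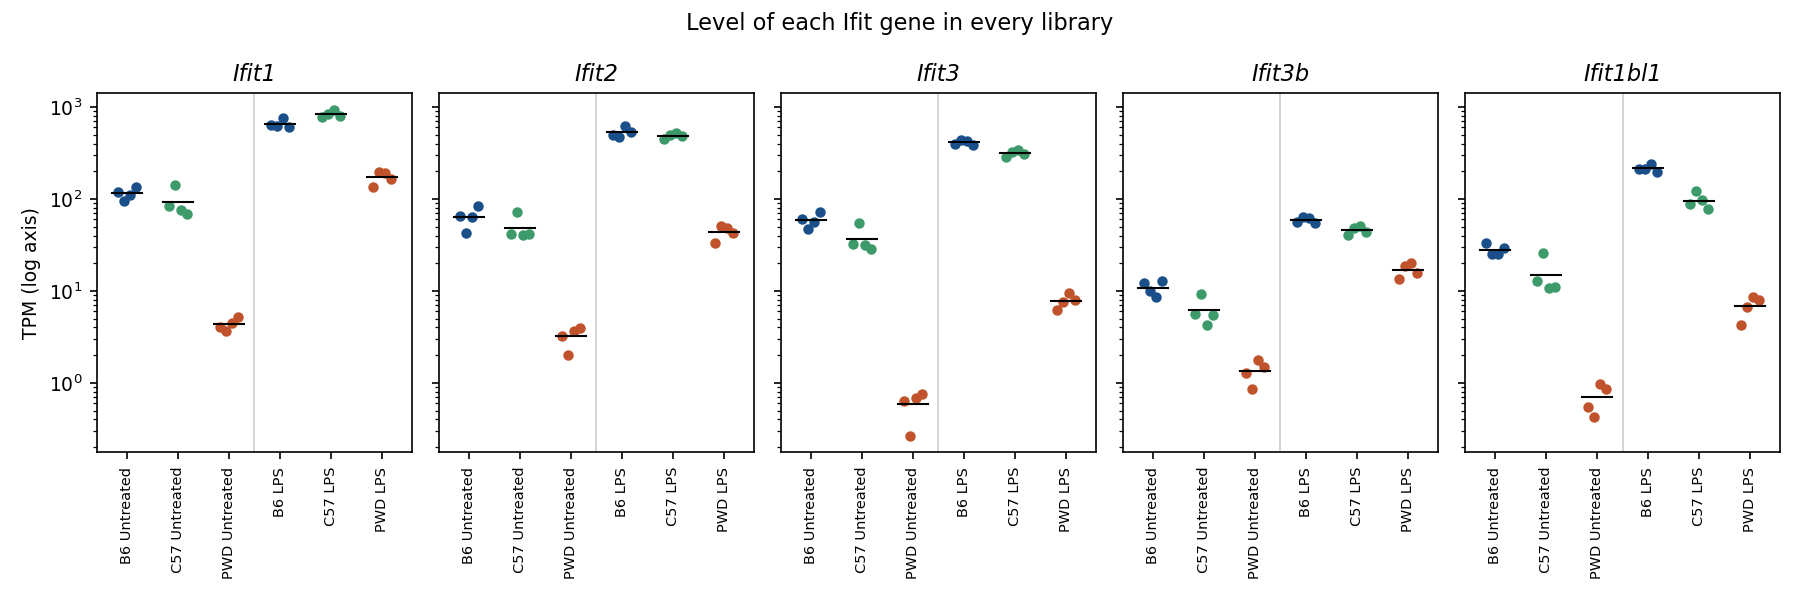
TPM on a log axis of each Ifit gene in all 24 libraries, 4 points per group and a line at the group mean, untreated groups to the left and LPS groups to the right of the grey line. Every PWD group lies below the B6 and C57 groups of the same treatment, and LPS raises every member in every strain; Ifit3 in PWD goes from 0.584 to 7.81 TPM.

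Summed over the 5 members, the family stood at 276 ± 46.1 TPM (SD, n = 4) in untreated B6, 199.9 ± 71.2 TPM in C57 and 10.2 ± 2.26 TPM in PWD. After LPS the sums were 1872 ± 161 TPM, 1778 ± 136 TPM and 247 ± 40.1 TPM. The LPS sum of PWD overlapped the untreated range of B6, 220.5 to 330.4 TPM. The make-up of the sum differed as well: after LPS, Ifit1 was 35.0% ± 0.735 of it in B6, 47.0% ± 0.849 in C57 and 69.6% ± 0.898 in PWD, whereas Ifit3 was 22.1% ± 1.60, 17.6% ± 0.187 and 3.17% ± 0.302.

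LPS raised all 5 members in all 3 strains, with no overlap between treated and untreated libraries. The share of all genes without such overlap is not given, here or for the pairs of strains below. In B6 the ratios of mean TPM ran from 5.45-fold for Ifit3b to 8.32-fold for Ifit2, in C57 from 6.37-fold for Ifit1bl1 to 9.97-fold for Ifit2, and in PWD from 9.75-fold for Ifit1bl1 to 39.6-fold for Ifit1. Tests were limma fits on log2(TPM + 1), a scale that understates the change of low genes, and a gene was called at a Benjamini-Hochberg adjusted p under 0.05 over all genes tested. Of those genes, 11.9% were called higher and 59.7% lower with LPS in B6, 10.4% and 52.2% in C57, and 11.1% and 52.4% in PWD. The median log2 change over all genes was -0.43, -0.32 and -0.32. Median-of-ratios scaling centres it near 0, and the shares called higher and lower were then 31.2% and 30.4% in B6, 24.9% and 26.4% in C57, and 27.1% and 26.1% in PWD.

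The LPS response of Ifit1 was 2.51 ± 0.16 (SE) on the log2 scale in B6, 3.21 ± 0.16 (SE) in C57 and 5.01 ± 0.16 (SE) in PWD, with limma adjusted p of 3.01e-12, 1.03e-13 and 1.09e-17. Ifit2 responded by 3.07, 3.34 and 3.42 in the same order of strains, with SE of 0.20. For Ifit3 the responses were 2.80, 3.09 and 2.47. Among these 3 genes the PWD value was the highest for Ifit1 and Ifit2 and the lowest for Ifit3. Ifit3b responded by 2.36, 2.75 and 2.93. Ifit1bl1 responded by 2.90, 2.66 and 2.18, with SE of 0.21. The adjusted p of these LPS responses was at most 1.56e-08, for Ifit1bl1 in PWD.

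**Figure D3:**
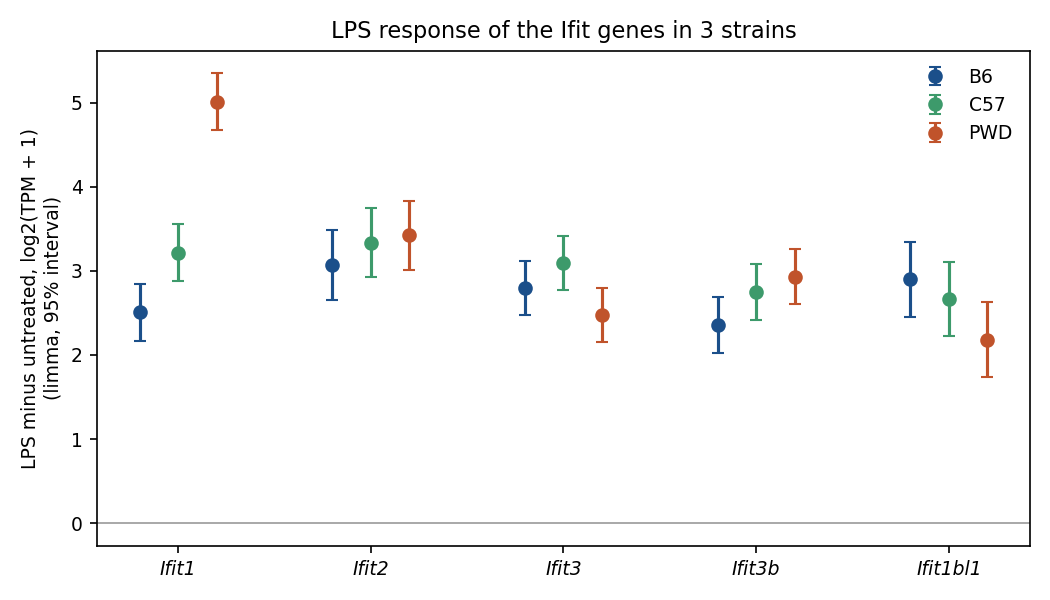
LPS minus untreated on the log2(TPM + 1) scale for each Ifit gene in B6, C57 and PWD, points for the limma estimate and bars for its 95% interval, 4 libraries per group. All 15 estimates lie above 2, and the interval of Ifit1 in PWD, 4.67 to 5.35, lies above those of Ifit1 in B6 and C57.

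PWD cells held less of every member than B6 cells, before and after LPS, and in each case no PWD library overlapped a B6 library. By mean TPM without treatment, B6 exceeded PWD 101-fold for Ifit3, 39.9-fold for Ifit1bl1, 26.5-fold for Ifit1, 19.9-fold for Ifit2 and 8.01-fold for Ifit3b. After LPS it exceeded PWD 52.8-fold for Ifit3, 31.4-fold for Ifit1bl1, 12.1-fold for Ifit2, 3.83-fold for Ifit1 and 3.48-fold for Ifit3b. In bulk samples fewer cells of a type and less RNA per cell cannot be told apart. The build named in the submitters' processing notes, mm10, is not a PWD genome. Whether fewer PWD reads mapped to any member or other gene named here, in this or any other comparison with PWD, was not tested. In the limma fit PWD minus B6 was -4.44 ± 0.16 (SE) for Ifit1 without treatment and -1.94 ± 0.16 (SE) after LPS. For Ifit3 the pair of differences was -5.24 ± 0.16 (SE) and -5.56 ± 0.16 (SE). The 5 members had adjusted p of at most 1.39e-12 without treatment and 3.30e-10 after LPS, both for Ifit3b. Among all genes, 19.7% were called lower and 37.2% higher in PWD without treatment, and 19.0% and 49.7% after LPS. With median-of-ratios scaling, which removes a median log2 shift of 0.14 and 0.28, the shares were 30.2% lower and 31.6% higher without treatment and 34.1% and 35.7% after LPS.

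PWD was lower than C57 for all 5 members without treatment, at -4.55 for Ifit3, -4.09 for Ifit1, -3.55 for Ifit2, -3.16 for Ifit1bl1 and -1.58 for Ifit3b on the log2 scale, where 26.2% of all genes were called lower and 20.1% higher. After LPS the differences were -5.17 for Ifit3, -3.64 for Ifit1bl1, -3.46 for Ifit2, -2.29 for Ifit1 and -1.40 for Ifit3b, where 29.8% were called lower and 24.4% higher. All 5 were called in both, without overlap of libraries, with limma adjusted p of at most 3.49e-08. These comparisons share the PWD libraries with those against B6, so they are not separate evidence about PWD.

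Cell type markers moved with strain. The summed level of 15 conventional dendritic cell markers was 3127 to 4221 TPM in untreated B6, 1353 to 1726 TPM in C57 and 966 to 1612 TPM in PWD. That of 15 macrophage and monocyte markers was 2043 to 2540, 1702 to 1894 and 915 to 1084 TPM, and 11 markers of mast cells, basophils and eosinophils summed to 107 to 224, 391 to 518 and 939 to 1171 TPM. After LPS the dendritic cell sums were 3486 to 4110, 1361 to 1607 and 1088 to 1433 TPM. The 9 plasmacytoid and B cell markers, which include the interferon-induced Bst2, summed to 98.5 to 131 TPM in untreated B6, 95.1 to 109 TPM in C57 and 32.2 to 42.0 TPM in PWD, but Siglech, which defines plasmacytoid cells, was at 0.411 TPM or less in every library and at 0 in all 4 of PWD LPS. The 15 neutrophil and precursor markers summed to 1941 to 2199 TPM in untreated B6, 2797 to 4509 TPM in C57 and 1940 to 3241 TPM in PWD. The 9 T and NK cell markers never summed to more than 1.63 TPM. Within some lists the directions were mixed. In PWD against B6 without treatment, 12 dendritic cell markers were called lower and 0 higher. For macrophages and monocytes 11 were lower and 2 higher, and for plasmacytoid and B cells 5 and 0. For mast cells, basophils and eosinophils 2 were lower and 5 higher, and for neutrophils and precursors 3 and 9. Of all genes, 19.7% were lower and 37.2% higher. The part of these marker shifts in the Ifit differences was not tested.

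Ifit1 was the member whose LPS response passed the test of a strain difference. Its response was larger in PWD than in B6 by 2.50 ± 0.23 (SE) on the log2 scale (limma interaction, adjusted p = 2.63e-08) and larger than in C57 by 1.80 ± 0.23 (SE) (adjusted p = 6.81e-06). Within libraries numbered 1 and 2 the PWD minus B6 value was 2.54 and within those numbered 3 and 4 it was 2.46. PWD therefore started 26.5-fold below B6 in Ifit1 and ended 3.83-fold below it. The other 4 members did not pass the test for PWD minus B6: the difference was 0.35 (95% interval, not adjusted, -0.23 to 0.93) for Ifit2, -0.33 (-0.78 to 0.13) for Ifit3, 0.57 (0.11 to 1.04) for Ifit3b and -0.72 (-1.35 to -0.09) for Ifit1bl1. With the mouse as a replicate block Ifit1bl1 passed, at -0.72 with adjusted p = 0.0086. So 1 of 5 members was called higher, where 16.0% of all genes were called higher and 7.50% lower (15.0% and 16.8% with median-of-ratios scaling). Rescaled in this way, the fit called 3 of the 5 members, Ifit1 among them.

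For Ifit3 and Ifit1bl1 this difference depends on how values under 1 TPM are treated. With 0.1 in place of 1 TPM as the pseudocount, PWD minus B6 turned to 0.77 for Ifit3 and 0.19 for Ifit1bl1. In ratios of mean TPM, LPS raised Ifit3 13.3-fold in PWD and 6.99-fold in B6, and Ifit1bl1 9.75-fold and 7.68-fold. Ifit1 kept its direction and its call in all alternatives run for PWD minus B6 (2.27 to 3.09) and for PWD minus C57 (1.37 to 2.22).

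PWD minus C57 called 1 of 5 members, Ifit1, where 5.41% of all genes were called higher and 5.99% lower (11.2% and 10.4% with median-of-ratios scaling, which also called Ifit3 lower). Ifit3, at -0.62 with adjusted p = 0.0723, was the nearest to the threshold among the others, but turned to 0.46 with a pseudocount of 0.1 TPM and to 0.0676 with Ifit3b added to it. C57 minus B6 also called Ifit1 alone, at 0.71 ± 0.23 (SE) with adjusted p = 0.0422, where 10.9% were called higher and 3.39% lower (10.6% and 15.0% with median-of-ratios scaling). Limma lost that call in 11 of 16 fits that left out 1 library. Under median-of-ratios scaling the value was 0.51 (adjusted p = 0.101), within libraries numbered 1 and 2 it was 0.32 (0.657), and within those numbered 3 and 4 it was 1.09 (0.0035).

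C57 and B6 differed less from each other than PWD did from either, for each member in each treatment. Without treatment C57 was lower for Ifit1bl1 (-0.94 ± 0.21 (SE), adjusted p = 0.00149), Ifit3b (-0.75 ± 0.16 (SE), adjusted p = 5.99e-04) and Ifit3 (-0.69 ± 0.16 (SE), adjusted p = 0.00112) by limma. Ifit1, at -0.35 with a 95% interval of -0.69 to -0.02, and Ifit2, at -0.38 with -0.80 to 0.03, did not pass. Thus 3 of 5 were called lower, where 6.92% of all genes were called lower and 31.9% higher (19.6% and 20.2% with median-of-ratios scaling, and then 5 of 5 members lower), although the libraries of both strains overlapped for all 5.

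Without C57 untreated replicate 2 there was no overlap for any of the 5. That library was singled out by these same member values, so the separation without it is not separate evidence. This library was above the mean of the other 3 by 0.90 for Ifit1, 0.81 for Ifit2, 0.82 for Ifit3, 0.77 for Ifit3b and 1.09 for Ifit1bl1 on the log2 scale. In it all 29 of the other antiviral effectors were above their mean in the other 3 libraries too, by a median of 0.35, while the median over all genes was 0.00066. It also held the highest Ifnb1 of the untreated libraries, 1.89 TPM. Without it all 5 members were called lower in C57, Ifit1 at -0.58 (limma adjusted p = 0.00087). Of the 13246 genes tested, 887 were then called lower and 3773 higher. Within libraries numbered 1 and 2, which include C57 untreated replicate 2, limma called 0 of 5 (1 at an unadjusted p under 0.05), with Ifit1 at 0.0351 and Ifit2 at 0.0605. Within those numbered 3 and 4 it called 5 of 5.

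After LPS, C57 was lower than B6 for Ifit1bl1, at -1.17 ± 0.21 (SE) (adjusted p = 6.95e-05) with 87.9, 121, 97.3 and 77.7 TPM against 212, 212, 243 and 195 TPM. Ifit3 was lower by limma as well, at -0.39 ± 0.16 (SE) (adjusted p = 0.0333), a call lost without B6 replicate 2 or 3 or C57 replicate 1 or 4 (adjusted p of 0.0793, 0.0706, 0.082 and 0.0665). Ifit3b, at -0.36 with adjusted p = 0.0589, and Ifit2, at -0.12 with -0.53 to 0.30 as its 95% interval, did not pass. Ifit1 pointed the other way, at 0.35 with adjusted p = 0.0692, and turned to -0.06 with median-of-ratios scaling. So 2 of 5 were called lower, where 9.69% of all genes were called lower and 49.1% higher (29.7% and 27.5% with median-of-ratios scaling, and then 4 of 5 members lower). The C57 and B6 libraries did not overlap for Ifit3, Ifit3b and Ifit1bl1, lower in C57, or for Ifit1, higher in C57.

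Ifit3 and Ifit3b are near copies, which bears on how their TPM can be read. Their coding sequences, 1209 bases each, differed at 11 bases (99.1% identity, GENCODE M21). Of all stretches of 50 bases in the Ifit3 transcript, 51.2% occur in Ifit3b as well, and of stretches of 100 bases 31.7%. No source used here gives the read length or the handling of reads that fit both. Ifit1 and Ifit1bl1 shared far less, 0.614% of 50-base stretches of Ifit1, and Ifit2 shared none with the other members.

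The ratio of Ifit3b to Ifit3 within a library separated the strains. It was 0.144, 0.142, 0.142 and 0.142 in the 4 B6 LPS libraries, 0.141, 0.149, 0.149 and 0.144 in C57 LPS and 2.19, 2.41, 2.09 and 1.99 in PWD LPS. Without treatment it was 0.152 to 0.208 in B6, 0.137 to 0.190 in C57 and 1.95 to 3.24 in PWD. By its mean log2 value the ratio was 15.2-fold higher in PWD than in B6 after LPS and 13.1-fold higher without treatment, and 14.8-fold and 14.5-fold higher than in C57. Each of these 4 differences had p = 0.0286 by a two-sided exact permutation test, the smallest that 4 libraries against 4 can give, and 0.0403 after adjustment over the 24 ratio tests made. B6 and C57 differed by 1.02-fold after LPS, within the spread of libraries. Such a ratio is free of library scaling, but mm10, the build named in the submitters' processing notes, is not a PWD genome, and how PWD reads were divided between the copies cannot be told from TPM. With both copies added together, PWD remained below B6 in both treatments under limma.

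**Figure D4:**
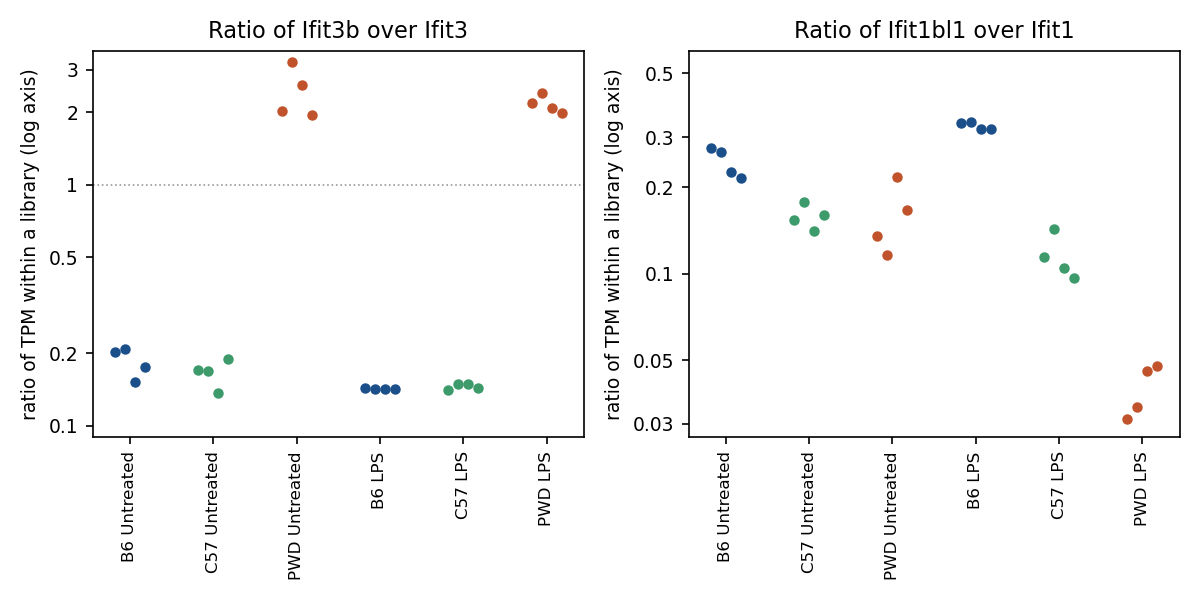
Ratios of TPM within a library on log axes, 4 libraries per group: Ifit3b over Ifit3 on the left with a dotted line at 1, and Ifit1bl1 over Ifit1 on the right. On the left the 8 PWD libraries lie at 1.95 to 3.24 and the 16 others at 0.137 to 0.208; on the right the 3 strains separate after LPS.

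Among the other ratios, Ifit1bl1 over Ifit1 after LPS was 0.335, 0.339, 0.321 and 0.321 in B6, 0.114, 0.143, 0.104 and 0.0968 in C57 and 0.0312, 0.0341, 0.0456 and 0.0476 in PWD, with no overlap between strains (exact permutation p = 0.0286 for each pair, 0.0403 adjusted). Without treatment the PWD ratio overlapped both others. Ifit3 over Ifit1 was 13.9-fold higher in B6 than in PWD after LPS and 4.04-fold higher without treatment, and Ifit2 over Ifit1 was 3.17-fold higher in B6 after LPS (each p = 0.0286, exact permutation test). After LPS each of these 3 members was thus lower relative to Ifit1 in PWD than in B6.

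The genes that sense LPS and relay interferon were taken as a list of 26, of which 23 were tested. With LPS 14 of them rose and 4 fell in B6, where 11.9% of all genes rose and 59.7% fell. In C57 12 rose and 4 fell (all genes 10.4% and 52.2%), and in PWD 14 rose and 2 fell (11.1% and 52.4%). With median-of-ratios scaling the counts were 20 and 1, 19 and 0, and 20 and 2. Of all genes, 31.2% rose and 30.4% fell under it in B6, 24.9% and 26.4% in C57, and 27.1% and 26.1% in PWD. In B6 Irf5 then turned from lower to higher, while Traf3, called lower before, changed sign without passing. In PWD against B6, 17 of the list were lower and 2 higher without treatment (list median -0.39, all genes 0.14). After LPS 14 were lower and 3 higher (-0.46, all genes 0.28). Of all genes, 19.7% were lower and 37.2% higher without treatment, and 19.0% and 49.7% after LPS. With median-of-ratios scaling 19 of the list were lower and 2 higher in each treatment. The all-gene shares were then 30.2% and 31.6% without treatment, and 34.1% and 35.7% after LPS. Ifnb1, the interferon itself, stood at 1.97 to 4.48 TPM in B6 LPS, 4.43 to 6.08 TPM in C57 LPS and 0.298 to 1.05 TPM in PWD LPS, and was listed at 0 in 3 of 4 untreated PWD libraries. PWD was lower than B6 after LPS (-1.43 ± 0.22 (SE), limma adjusted p = 2.45e-06). The alpha interferon genes Ifna1, Ifna2 and Ifna4 were not tested, at 0.218 TPM or less in every library.

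For the receptor genes the call depended on the scaling. Ifnar1, an interferon receptor chain, was at -0.16 in PWD minus B6 without treatment and 0.41 after LPS on the log2 scale, and at -0.31 and 0.07 with median-of-ratios scaling. Tlr4, the LPS receptor, was at -0.12 and -0.03, neither of which passed, and at -0.28 and -0.37, which did. Under both scalings its co-receptor Cd14 was higher in PWD, by 1.18 and 1.39. Stat2, a part of the complex that binds the ISRE, was lower, at -2.20 without treatment and -1.37 after LPS. Irf9 was lower without treatment, at -1.74, but did not pass after LPS, at -0.18 (-0.52 and called with median-of-ratios scaling), and its response was larger in PWD by 1.56 (adjusted p = 3.59e-07, limma). Irf7, which amplifies interferon output, was lower at -3.85 and -2.55, and Usp18, which restrains the receptor, at -4.43 and -2.24. The responses of Usp18 and Irf7 were larger in PWD, by 2.19 and 1.29, next to 2.50 for Ifit1. Of the 23 tested genes of the path, 7 responses were called larger in PWD than in B6 and 3 smaller. Of all genes, 16.0% were called larger and 7.50% smaller. With median-of-ratios scaling 6 of the path were larger and 8 smaller, where the all-gene shares were 15.0% and 16.8%.

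**Figure D5:**
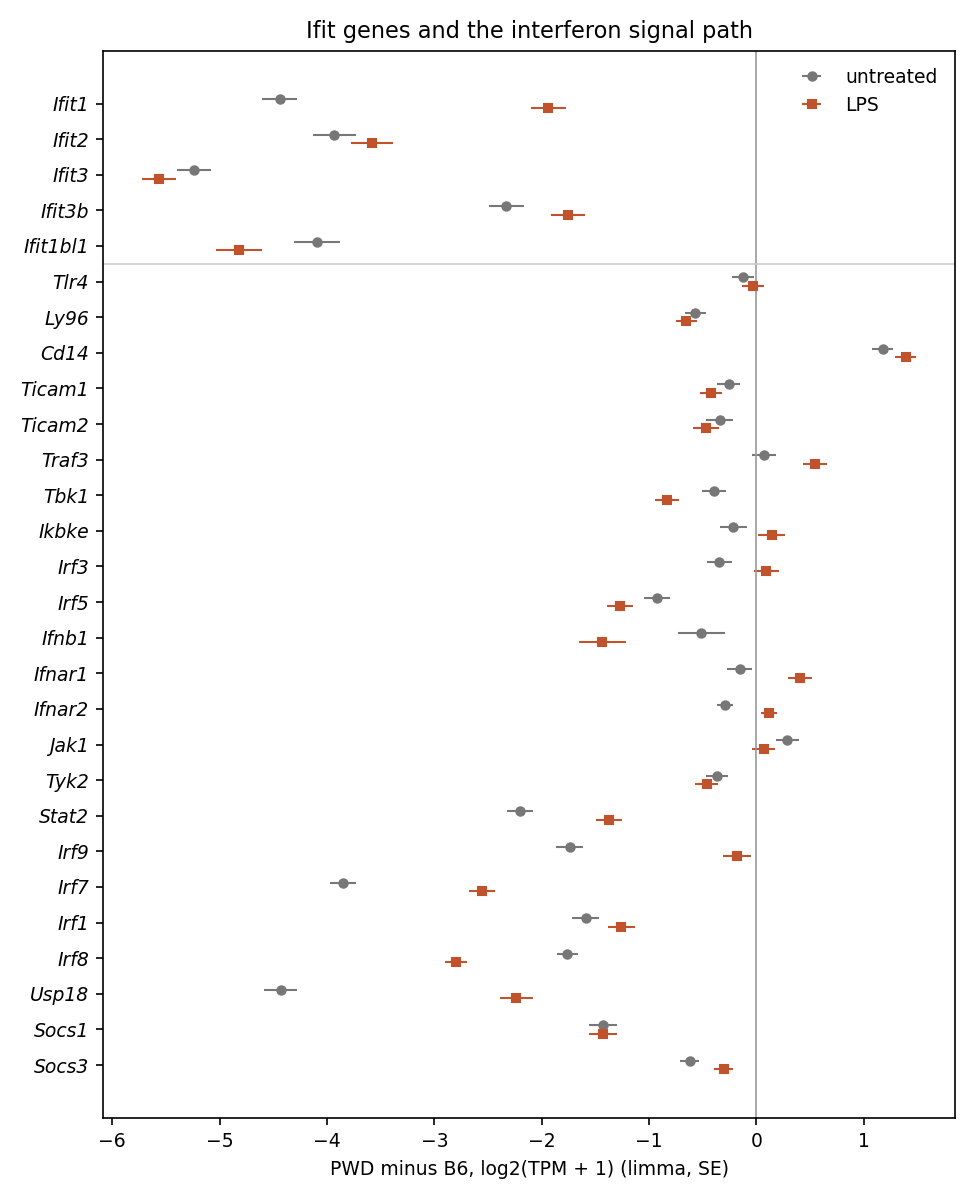
PWD minus B6 on the log2(TPM + 1) scale for the 5 Ifit genes (above the grey line) and the 23 tested genes of the interferon signal path, untreated as grey circles and LPS as orange squares, bars for the limma SE, 4 libraries per group. Ifit1, Usp18, Irf7 and Irf9 lie closer to 0 after LPS than without it, while Irf8 lies further from 0.

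A list of 29 other antiviral effectors was all tested. With LPS 26 rose in B6, 26 in C57 and 27 in PWD, and 1 was called lower in each. Of all genes, 11.9%, 10.4% and 11.1% rose and 59.7%, 52.2% and 52.4% fell. In PWD against B6, 27 effectors were lower and 1 higher without treatment (median -2.60). After LPS 25 were lower and 3 higher (median -1.58), and the all-gene medians were 0.14 and 0.28. Of all genes, 19.7% were lower and 37.2% higher without treatment, and 19.0% and 49.7% after LPS. Rsad2, encoding the antiviral enzyme viperin, was lower at -4.07 without treatment, and Oas1a, a sensor of double-stranded RNA, at -4.41 without treatment and -3.93 after LPS. The PWD response exceeded that of B6 in 18 effectors and in 16.0% of all genes, and fell short in 3 effectors and in 7.50%. The list median was 0.68 against 0.14 for all genes. The dynamin-like GTPase Mx2 (2.98) and the chaperone gene Rtp4 (2.96) were on the first side with Ifit1, and the GTPase Iigp1 (-3.12) was on the other. For C57 against B6, 16 effectors were lower and 1 higher without treatment, where 6.92% of all genes were lower and 31.9% higher. After LPS 18 effectors were lower and 1 higher, where 9.69% of all genes were lower and 49.1% higher. With median-of-ratios scaling the effector counts were 23 and 1, then 26 and 1. The all-gene shares were then 19.6% lower and 20.2% higher without treatment, and 29.7% and 27.5% after LPS.

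Of 11 tested RNA and DNA sensors, 7 rose and 2 fell with LPS in each strain. Of all genes, 11.9%, 10.4% and 11.1% were called higher with LPS in B6, C57 and PWD, and 59.7%, 52.2% and 52.4% lower. In PWD against B6, 9 sensors were lower and 2 higher without treatment, and 8 and 2 after LPS, the same counts as with median-of-ratios scaling. Of all genes, 19.7% were lower and 37.2% higher without treatment, and 19.0% and 49.7% after LPS. With that scaling the all-gene shares were 30.2% and 31.6%, then 34.1% and 35.7%. Ifih1, the RNA sensor MDA5, rose by 2.47, 2.36 and 3.26 on the log2 scale in B6, C57 and PWD. Among 6 tested enzymes that form or methylate the cap of host RNA, 1 rose with LPS in each strain. Of these enzymes 5, 2 and 5 were called lower in B6, C57 and PWD. Their medians were -0.48, -0.18 and -0.38, beside -0.43, -0.32 and -0.32 for all genes. With median-of-ratios scaling 2, 3 and 1 were higher and 1 was lower in each strain. Of all genes, 31.2%, 24.9% and 27.1% were higher and 30.4%, 26.4% and 26.1% lower under it in B6, C57 and PWD. The enzyme that rose was Cmtr1, which adds the methyl group that hides a cap from IFIT1. It rose by 1.15 in B6, 0.70 in C57 and 0.71 in PWD. It was lower in PWD than in B6, at -0.94 without treatment and -1.37 after LPS. The 13 subunits of the initiation factor eIF3, which IFIT proteins are known to bind, were called lower with LPS in 13, 11 and 13 cases, with medians of -0.65, -0.37 and -0.43 beside -0.43, -0.32 and -0.32 for all genes. With median-of-ratios scaling 5, 3 and 5 were lower and 1, 3 and 1 higher, beside the all-gene shares under that scaling given above.

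Of 8 genes flanking the cluster, 7 were tested, and Slc16a12, the next gene beyond Ifit1, was at 0.0314 TPM or less. In PWD against B6, 3 were higher and 1 lower without treatment, where 37.2% of all genes were higher and 19.7% lower. After LPS 6 were higher and 0 lower, where 49.7% of all genes were higher and 19.0% lower. Median-of-ratios scaling gave 3 and 2, then 6 and 1, beside all-gene shares of 31.6% and 30.2%, then 35.7% and 34.1%. All 5 Ifit genes were lower in both treatments. Ch25h, an LPS-induced enzyme that makes 25-hydroxycholesterol, stood at 14.4 ± 3.16 TPM (SD, n = 4) in untreated B6 and 97.5 ± 8.34 TPM in PWD, and at 148 ± 34.7 and 459.8 ± 45.8 TPM after LPS. It rose by 3.27, 2.48 and 2.23 on the log2 scale in B6, C57 and PWD. The death receptor gene Fas rose by 0.80, 0.71 and 1.90. Stambpl1, a deubiquitinase gene, was at -0.80 with LPS in B6, where the median gene was at -0.43, and rose by 1.55 in PWD, a difference of 2.36 (limma adjusted p = 3.01e-11).

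Over the 24 libraries, Pearson's r of log2(TPM + 1) between members ran from 0.875 for Ifit3 with Ifit3b, the near copies, to 0.987 for Ifit3 with Ifit1bl1. These r values describe libraries that share the same groups and carry no test. The tested genes most like Ifit1 were Ifi47, Cmpk2 and Xaf1 (r of 0.991, 0.990 and 0.990), and those most like Ifit2 were Ifi203, Cxcl10 and Rsad2 (0.998, 0.995 and 0.995). For Ifit3 they were H2-T22, Mndal and Gm4070 (0.994, 0.993 and 0.993), for Ifit3b Ifih1, Gbp7 and Parp9 (0.991, 0.991 and 0.989), and for Ifit1bl1 Epsti1, Pnp and AW011738 (0.992, 0.990 and 0.988). H2-T22, a non-classical class I gene, showed the pattern of Ifit3, with 8.76 ± 1.07 TPM (SD, n = 4) in PWD LPS below 43.6 ± 5.79 TPM in untreated B6. How well PWD reads of H2-T22 mapped was not tested. Ifi47, an interferon-induced GTPase, stood at 72.2 ± 11.3 TPM in PWD LPS, near its 71.6 ± 17.3 TPM in untreated B6. Ifit2's nearest chemokine, Cxcl10, reached 2165 ± 259.8 TPM in B6 LPS and 87.3 ± 11.8 TPM in PWD LPS.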

How the data were processed

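Bulk RNA-seq libraries were made with a stranded kit from 1 µg of total RNA, per the labels' protocols. The deposited values are TPM, computed by the authors, each library summing to 1000000; STAR, edgeR and mm10 are named in the submitters' processing notes, but no version or annotation is given there. The table had 55401 rows, and 217 rows sharing a symbol with another were summed by symbol. TPM keep no depth, so counting errors are unknown.

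Genes at 1 TPM or more in 4 or more libraries were tested (13246). Values as log2(TPM + 1) were fitted with limma 3.58.1 (R 4.3.3): 6 group means over all 24 libraries, 18 residual degrees of freedom, trend and robust empirical Bayes, Benjamini-Hochberg adjustment over all genes, calls at an adjusted p under 0.05. Ratios between members were compared with exact permutation tests (SciPy 1.17.1). Fits were checked on simulated data.

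Because the design text gives 4 mice per strain, libraries of a strain with the same number were taken as 1 mouse, not by an explicit label. Their deviations from the group means correlated at 0.0513 to 0.176 in 12 pairs, and 9 of 12 fitted their own partner best. Alternatives were another pseudocount, filters, scalings, moderation, fewer groups, the mouse as a block, subsets of libraries and summed copies.

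Members and lists were chosen with earlier results of these data known. Named genes were the members, the 3 genes most correlated with each, genes of the signal path, cap enzyme and neighbour lists, and, from other lists, the 3 largest called differences of a comparison among genes at 10 TPM or more in the higher group. The list of signal path genes is given without 1 gene, which is not reported here. Markers are given as list sums and defining genes. Motif shares were counted over RefSeq promoter windows (GRCm38.p6).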

Additional observations from a re-analysis of the deposited data

Results flagged for a closer look

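Within groups of 4 libraries, 30 sets of member values were examined for a library whose gap to its nearest neighbour takes most of the group's range, and 4 stood out. Chance gives about 1 in 20 for a single set. The members vary together and share libraries, so the 30 sets are not independent and the count shows no excess over chance. Ifit2 at 72.5 TPM, Ifit3 at 55.4 TPM and Ifit1bl1 at 25.5 TPM were all in C57 untreated replicate 2, against 40.3 to 41.2, 28.7 to 32.7 and 10.7 to 12.9 TPM in the other 3 libraries. Ifit1 at 756 TPM in B6 LPS replicate 3 stood above 608 to 633 TPM in the others.

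The LPS response of Ifit1 differed between strains by limma interaction terms: by 2.50 between PWD and B6, by 0.71 between C57 and B6 and by 1.80 between PWD and C57 on the log2 scale. Ifit1 rose in all 3 strains, and the C57 and B6 difference is the one that was lost in most fits without 1 library.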

How the results depend on the processing

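The rise of all 5 members with LPS in each strain, and their lower level in PWD than in B6 and C57 in both treatments, kept direction and call under every alternative run. Over all 12 comparisons, the count of members called moved by more than 1.5 times in 45 of 252 alternatives; the cause was not tested. For C57 against B6 without treatment (3 called), 5 were called with median-of-ratios scaling, quantile normalization or numbers 3 and 4, and 0 with numbers 1 and 2, where 1 had an unadjusted p under 0.05 (3 to 5 leaving out 1 library, 5 without C57 untreated replicate 2). For C57 against B6 after LPS (2), 1 was called with a pseudocount of 0.1 TPM, no filter or numbers 1 and 2, and 4 with median-of-ratios scaling or the compared groups alone (1 to 2 leaving out 1 library). For PWD minus B6 responses (1), 2 were called with a pseudocount of 0.1 TPM, without structural RNA, with the replicate block or with numbers 3 and 4, and 3 with median-of-ratios scaling, quantile normalization or the compared groups alone (1 to 2). For C57 minus B6 (1), limma called 0 with no filter, median-of-ratios scaling, no trend, the compared groups alone or numbers 1 and 2 (at an unadjusted p under 0.05, 1, 1, 1, 1 and 0), and 3 with numbers 3 and 4 (0 to 1). For PWD minus C57 (1), 2 were called with median-of-ratios scaling and 3 with numbers 3 and 4 (1 to 3). The replicate block changed no call but that of Ifit1bl1 for PWD minus B6 (-0.72, adjusted p = 0.0086).

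Values that changed sign were mostly near 0 and none had passed the test. Against B6, C57 without treatment turned to 0.0351 (Ifit1) and 0.0605 (Ifit2) with numbers 1 and 2, and C57 after LPS to -0.0572 (Ifit1) with median-of-ratios scaling. PWD minus B6 responses turned to 0.77 (Ifit3) and 0.19 (Ifit1bl1) with a pseudocount of 0.1 TPM, and for Ifit3 to 0.0922 with quantile normalization, 0.0559 without structural RNA and 0.39 with Ifit3b added. C57 minus B6 turned to 0.0669 (Ifit1bl1, quantile normalization), 0.0335 (Ifit1bl1, without C57 untreated replicate 2; leaving out 1 library gave -0.36 to 0.0335), -0.10 (Ifit2) and -0.13 (Ifit3) with numbers 1 and 2. PWD minus C57 turned to 0.46 (Ifit3) and 0.38 (Ifit1bl1) with a pseudocount of 0.1 TPM, 0.0676 (Ifit3 with Ifit3b added), -0.12 (Ifit2) and -0.0095 (Ifit3b) without C57 untreated replicate 2, -0.07 (Ifit2, without PWD untreated replicate 2; leaving out 1 library gave -0.12 to 0.21 for Ifit2 and -0.0095 to 0.31 for Ifit3b), and -0.31 (Ifit2) and -0.20 (Ifit3b) with numbers 3 and 4. Of 216 alternatives for the ratios, chosen after seeing the data, 209 kept direction; untreated Ifit1bl1 over Ifit1, PWD against C57, turned to a log2 difference of 0.14 with a pseudocount of 0.1 TPM and ran from -0.193 to 0.11 leaving out 1 library, and Ifit2 over Ifit1, C57 against B6, ran from -0.13 to 0.0339. Without 1 library an exact test of 3 against 4 cannot pass 0.05.

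Counts over all genes moved by more than 1.5 times for C57 against B6 without treatment (5135, 3393 with numbers 1 and 2), LPS in PWD (8410, 5600 with numbers 1 and 2), PWD minus B6 (3111, 5642 without structural RNA), C57 minus B6 (1896, then 3380 with median-of-ratios scaling, 4394 without structural RNA and 725 with numbers 1 and 2) and PWD minus C57 (1510, then 2861 with median-of-ratios scaling, 2966 with quantile normalization, 2730 without structural RNA and 2378 with numbers 1 and 2). Counts of members with copies summed were not taken, since the number of members then differs.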
